A study of Mus musculus with 10 samples.

Results

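Cabyr and Cib3 are calcium-binding genes that stood near the head of a comparison of livers with and without nucleomethylin, and both were taken up here because of that comparison. Each was read by 1 probe set (10454030 for Cabyr and 10579649 for Cib3) of 28815 on the array, and they are 2 of 19935 genes that could be named. The values come from total RNA of whole livers of mice aged 12 weeks, measured on Affymetrix whole-transcript arrays with 1 array per liver. One group held 5 wild-type (WT) livers and the other 5 livers of mice lacking nucleomethylin (NML-KO), the nucleolar protein encoded by Rrp8. The labels name no treatment, and they leave out strain, sex, litter, time of dissection and the design of the deleted allele. The p-values below measure the spread between livers of these groups.

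CABYR is best known from the sperm tail. There it is a phosphoprotein of the fibrous sheath, becomes phosphorylated on tyrosine as sperm mature in the female tract, and binds calcium in that state. It carries a docking domain like that of protein kinase A and is found together with the anchoring proteins AKAP3 and AKAP4. CIB3 belongs to a small family of EF-hand proteins named after CIB1, a calcium and integrin binding protein, and with CIB2 it is known as a partner of the TMC channels of hair cells. Neither protein has a textbook role in hepatocytes.

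Hepatocyte markers were bright in all livers, with list means from 13.69 to 13.82 on the log2 scale over 11 measured genes. Rrp8 lay between 7.65 and 7.90 in WT livers and between 6.65 and 7.19 in NML-KO livers, and whether its probes lie in the deleted part is not known here. The arrays also fell into 2 sets that cut across genotype, defined here from the first principal component of values centred within genotype (47.4% of that variance). WT 1, WT 2 and NML-KO 1 to 3 formed the first set, with high Dbp, a clock output gene, and the other livers the second. No gene passed a limma adjusted p of 0.05 (0 of 19935, or 0%), and 539 genes, 2.70%, had an unadjusted p below 0.05.

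Cabyr signal was higher in NML-KO livers on average, and it varied widely among them. In WT livers 1 to 5 its log2 intensity was 6.70, 7.13, 6.18, 6.30 and 6.56. In NML-KO livers 1 to 5 it was 8.52, 6.87, 9.15, 7.98 and 7.98. NML-KO 2 lay among the WT livers, below WT 2, and the other 4 NML-KO livers lay above every WT liver, so the genotypes overlapped. On the linear scale the deposited intensities ran from 72.4 to 140.5 in WT livers and from 116.7 to 566.7 in NML-KO livers.

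The WT mean was 6.58 ± 0.38 (SD, n = 5). The mean over NML-KO livers was 8.10 ± 0.84 (SD, n = 5). The log2 difference was 1.52 (SE 0.36, 95% interval from limma 0.71 to 2.33), or 2.87-fold, and it was the widest in size of the 19935 genes. Since the gene was chosen on this contrast, the value is a description and carries no test. Among NML-KO livers the highest value was 4.86-fold the lowest, against 1.94-fold among WT livers. Cabyr's spread within genotype (SD 0.65) was larger than that of 98.6% of genes, whose median was 0.15. In bulk tissue, more cells that carry a transcript and more transcript per cell cannot be told apart.

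The difference did not have the same size in the livers of both array sets, and no direction turned. It was 1.26 in the first set, where the means were 6.92 in WT and 8.18 in NML-KO livers. It was 1.63 in the second, with means of 6.35 and 7.98. Within the second set all NML-KO livers lay above all WT livers, and the pair of NML-KO values agreed to 2 decimals at 7.98. Without NML-KO 2 the difference was 1.83, and without NML-KO 3 it was 1.26. Pancreatic acinar markers, 7 measured of 9, had their highest list mean in NML-KO 2 (5.81, against 5.38 to 5.52 in the other 9 livers), the NML-KO liver with the lowest Cabyr. Their part in the Cabyr value was not tested.

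Cib3 signal was lower in NML-KO livers, with no overlap between genotypes. Its log2 intensity was 6.63, 7.53, 6.75, 6.87 and 6.83 in WT livers 1 to 5. It was 5.79, 5.94, 6.49, 6.19 and 5.88 in NML-KO livers 1 to 5. All 5 NML-KO livers lay below the lowest WT liver, WT 1, by a margin that was narrow for NML-KO 3. Such separation, in either direction, was seen for 81 of 19935 genes (0.406%), and since Cib3 was chosen on this contrast nothing is read from it. The linear intensities ran from 99.1 to 185.2 in WT livers and from 55.3 to 89.9 in NML-KO livers, close to the array medians of 62.54 to 66.75.

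The WT mean of Cib3 was 6.92 ± 0.35 (SD, n = 5). The mean over NML-KO livers was 6.06 ± 0.28 (SD, n = 5). The log2 difference was -0.87 (SE 0.18, 95% interval from limma -1.27 to -0.46), which put NML-KO livers at 54.8% of the WT level. In size this difference ranked 17 of 19935 genes, again as a description without a test. It was -1.01 among livers of the first set, with means of 7.08 and 6.08, and -0.79 among those of the second, with means of 6.82 and 6.03. WT 2 stood apart from the other WT livers, and without it the difference was -0.71. Its spread within genotype (SD 0.32) exceeded that of 90.1% of genes.

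**Figure D1:**
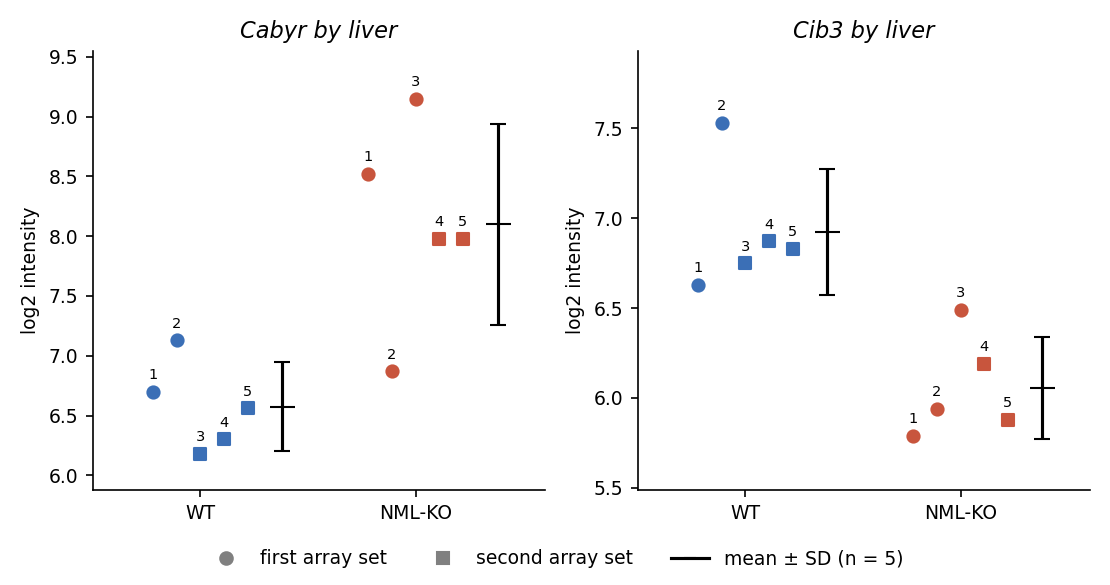
Log2 intensity of Cabyr (left) and Cib3 (right) in each liver, WT in blue and NML-KO in red, with the liver's number above each point and its array set as the marker; black bars are the mean and SD of 5 livers. For Cabyr, NML-KO 2 at 6.87 lies among the WT livers and NML-KO 3 reaches 9.15; for Cib3 the 5 NML-KO livers, at 5.79 to 6.49, lie below the 5 WT livers, at 6.63 to 7.53.

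Although the genotype differences of the genes had opposite signs, both were high within their genotype in the same livers. After each gene was centred within genotype, WT 2 was the highest WT liver for both (0.56 for Cabyr and 0.61 for Cib3). NML-KO 3 was the highest NML-KO liver for both (1.05 and 0.43). The remaining livers did not line up: NML-KO 1 was 0.42 above its group mean for Cabyr and 0.27 below it (-0.27) for Cib3. Over the 10 livers Pearson's r was 0.525 (p = 0.109, two-sided exact permutation within genotype) and Spearman's rho was 0.212 (p = 0.578, same test). This pair was the 1 relation tested, and its p-values are unadjusted. The settings that follow repeat the test on the same pair, so a p below 0.05 in 1 of them is not read as a result. Without NML-KO 2 and NML-KO 3, the livers farthest from the Cabyr median, r was 0.449 over 8 livers (p = 0.368, exact permutation). With the array set centred out as well, r was 0.465 (p = 0.319, exact permutation), and each set alone is too small for a correlation. Without NML-KO 1 it was 0.668 (p = 0.0392, exact permutation), and without NML-KO 3 it was 0.282 (p = 0.376, exact permutation). A relation between the genes was not detectable over all 10 livers.

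Relatives and partners of the genes showed no difference of comparable size that passed a test. Of the CIB family, Cib1 and Cib4 were measured, and Cib2 had no probe set of its own among those named. Cib1, the founding member, was 381.8, 368.4, 420.8, 573.9 and 510.9 in linear intensity in WT livers 1 to 5. In NML-KO livers 1 to 5 it was 344.2, 328.6, 341.7, 395.4 and 387.2. The NML-KO values lay lower on average, but NML-KO 4 and 5 exceeded WT 1 and 2, so the genotypes overlapped. On the log2 scale Cib1 differed by -0.31 (SE 0.12, limma unadjusted p = 0.0305, adjusted p = 0.999), by -0.15 among first-set livers and by -0.35 among second-set livers. Cib4 differed by -0.08 (SE 0.08), with means of 5.10 in WT and 5.02 in NML-KO livers.

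A list of the CIB family with its integrin, kinase and hair-cell partners had 16 of 19 members measured, with 7 above 0 and 9 below. Its median log2 difference was -0.030, beside -0.0065 over all genes. Of the 16, 2 had an unadjusted p below 0.05 in limma, a mark met by 2.70% of all genes, and both were lower: Cib1 and Myo7a, an unconventional myosin of hair-cell bundles (-0.29, SE 0.09, unadjusted p = 0.00869, adjusted p = 0.999). The channel genes Tmc1 (0.02) and Tmc2 (-0.02), known partners of CIB proteins, had WT means of 4.70 and 5.13 and NML-KO means of 4.72 and 5.11. Plk3, a stress-response kinase that CIB1 binds, had the widest difference of the list (0.95, SE 0.55, limma unadjusted p = 0.115). Its direction turned between array sets, with -0.33 among first-set livers and 1.80 among second-set livers. Its SD within genotype was 0.98. Plk3, Tmc1 and Tmc2 were named after their values were seen.

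The sperm genes around CABYR, most of them below the array medians in signal, showed no difference of its size. In the list of fibrous sheath genes and CABYR partners, 18 of 19 were measured, 11 above 0 and 7 below, with a median of 0.018. In limma 0 of them had an unadjusted p below 0.05, and 0 separated the genotypes, against 2.70% and 0.406% of all genes. Tekt2, a tektin of flagellar microtubules, had the smallest p (0.08, SE 0.04, limma unadjusted p = 0.113), followed by Odf1, a protein of the outer dense fibres (0.07, SE 0.05, unadjusted p = 0.162). Akap3 differed by 0.15 (SE 0.11), Akap4 by 0.06 (SE 0.04) and Fscb, a fibrous sheath protein that binds CABYR, by 0.02 (SE 0.06). These genes were named after their values were seen.

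A wider list of 30 germ cell genes, all measured, had 20 above 0, a median of 0.018 and a range from -0.098 to 0.14. Its list mean lay between 4.90 and 4.99 in WT livers and between 4.89 and 5.00 in NML-KO livers. Sycp3, of the meiotic chromosome axis, differed by 0.14 (SE 0.08) and Prm1, a sperm protamine, by 0.12 (SE 0.07), and neither had an unadjusted p below 0.05 in limma. Thus 0 of the 48 sperm and germ cell genes on these lists met that mark, beside 2.70% of all genes. At that share few of 48 would be called, so nothing is read from the count. The germ cell list mean lay below the array median in every liver, where a change in transcript is hard to see.

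Other calcium-binding and calcium-handling genes were likewise close to 0. Among EF-hand sensors such as the calmodulins, 51 genes were measured and 18 of them lay above 0 (median -0.0094). Pef1, a penta-EF-hand protein, had the smallest p there (-0.31, SE 0.14, limma unadjusted p = 0.0555), followed by Hpcal1, a neuronal sensor protein (-0.23, SE 0.11). S100 and annexin genes had 10 of 27 above 0 and a median of -0.035, led by Anxa10 (-0.08, SE 0.05) and Anxa11 (-0.18, SE 0.10). Calcium channels, pumps and stores had 21 of 35 above 0 and a median of 0.018. Orai2, of the store-operated channel (-0.22, SE 0.10, unadjusted p = 0.0508), and Letm1, of the inner mitochondrial membrane (-0.16, SE 0.09), came first by p. Calcium-dependent kinases, calcineurin and their targets had 11 of 28 above 0 and a median of -0.019. Nfatc2 (-0.11, SE 0.07) and Phkg2, a catalytic subunit of phosphorylase kinase (-0.18, SE 0.12), came first in it. In these 4 lists 0 of 141 genes had an unadjusted p below 0.05 in limma, beside 2.70% of all genes, and 0 separated the genotypes, beside 0.406%.

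**Figure D2:**
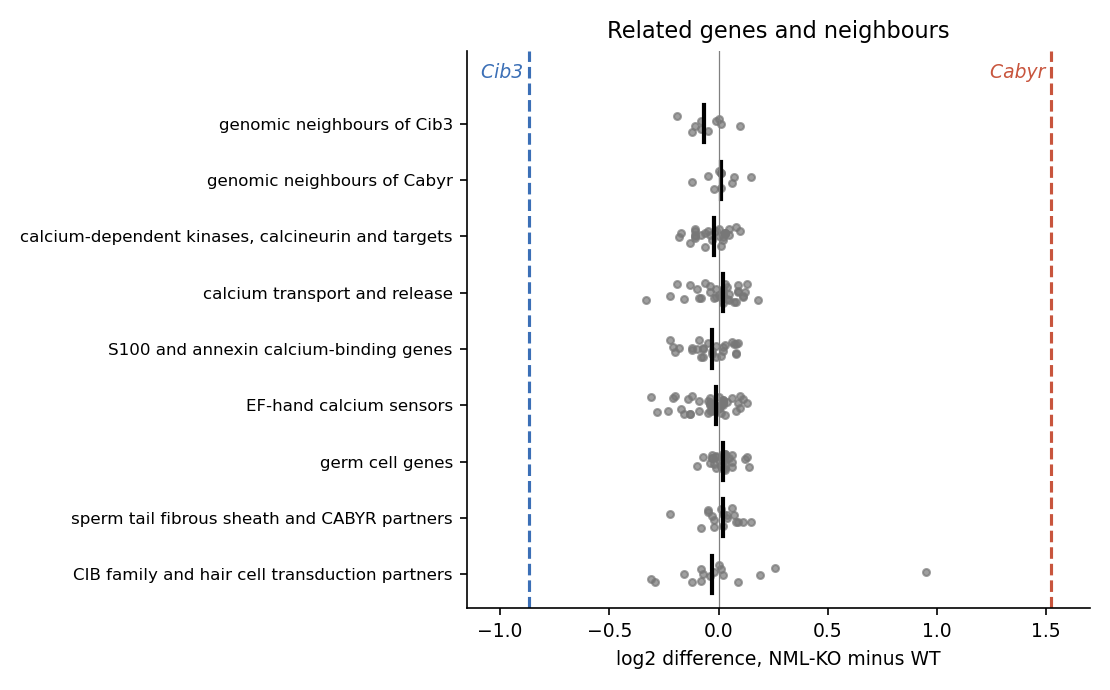
Log2 difference, NML-KO minus WT, of every measured gene in 7 lists of related genes and among the 10 nearest measured protein-coding genes of each member; black ticks are list medians, and dashed lines mark Cib3 (-0.87) and Cabyr (1.52). The list medians lie between -0.066 and 0.018, and Plk3 at 0.95 is the widest value in the lists.

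Genes beside Cabyr and Cib3 on their chromosomes had no differences of comparable size. Neighbours were taken as the 5 nearest measured protein-coding genes on each side in the RefSeq gene order of GRCm38.p6. Around Cabyr, on chromosome 18, the 10 neighbours ran from -0.12 (Osbpl1a, an oxysterol-binding protein gene) to 0.15 (Zfp521), with a median of 0.0078. Of them 7 lay above 0 and 3 below. Ttc39c, the nearest on one side, differed by 0.06 (SE 0.20), and Npc1, the lysosomal cholesterol exporter gene, by -0.05 (SE 0.23). Around Cib3, on chromosome 8, they ran from -0.19 (Fam32a) to 0.10 (Klf2, a transcription factor gene of endothelium), with a median of -0.066. Here 8 lay below 0 and 2 above, beside 10650 of 19935 genes below 0. Rab8a, a membrane traffic GTPase gene and the nearest on one side, differed by -0.11 (SE 0.13). Fam32a, the nearest on the other side, had an SE of 0.09 (limma unadjusted p = 0.066). Of the 20 neighbours 1 had an unadjusted p below 0.05, beside 2.70% of all genes: Calr3, on the Cib3 side, a calreticulin gene of the testis (-0.12, SE 0.05, limma unadjusted p = 0.0215, adjusted p = 0.999). Within genotype Calr3 went against Cabyr rather than Cib3 (r of -0.857 with Cabyr and -0.436 with Cib3, 10 livers).

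Genes whose values followed Cabyr among livers of the same genotype were ranked by Pearson's r over the 10 livers after centring within genotype. These correlations are descriptions: all points come from the same arrays, the leading genes are the extremes of 19935, and no p is given. The genes most like Cabyr were Car13, a cytosolic carbonic anhydrase gene (r = 0.971), and Ttll5, a tubulin glutamylase gene (r = 0.965). Car13 log2 intensity was 5.21, 5.38, 5.07, 5.09 and 5.11 in WT livers 1 to 5 and 5.42, 4.80, 5.48, 5.23 and 5.23 in NML-KO livers 1 to 5. Among NML-KO livers its lowest value was that of number 2 and its highest that of number 3, the order seen for Cabyr. Its genotype means were 5.17 and 5.23, so it shared the pattern within genotype and had a difference of 0.06 (SE 0.12). Car13 signal was below the array median in every liver.

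Ttll5 was 7.54, 7.66, 7.38, 7.38 and 7.47 in WT livers 1 to 5 and 7.59, 7.10, 7.70, 7.32 and 7.27 in NML-KO livers 1 to 5. Here too NML-KO 2 was lowest and NML-KO 3 highest. The next 6 had r from 0.921 to 0.928: Med13, of the Mediator complex, Pfdn4, of the prefoldin chaperone, Tdrd3, Zfp715, Phtf1 and Ssu72, a phosphatase of RNA polymerase II. Without NML-KO 2 and NML-KO 3, r stayed at 0.974 for Car13 and 0.955 for Ttll5, and was 0.608 for Ssu72 and 0.730 for Phtf1. The lowest correlations were those of Slc5a11, an inositol transporter gene (-0.962), Col8a2, a collagen gene (-0.960), Krtap31-1 (-0.959) and Corin, a protease gene (-0.958). Slc5a11, Krtap31-1 and Corin lay below the array median in every liver, and Col8a2 in all livers except NML-KO 2. Each of them was highest in NML-KO 2, the array with the highest median intensity. Pfdn4 also lay below the array median in every liver. Krtap31-1 had a spread of 0.038 within genotype, and its r was -0.802 without NML-KO 2 and NML-KO 3.

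Of the genes most like Cib3, Myo1d, an unconventional myosin gene, came first (r = 0.985), then Abca9, a transporter gene (0.967), and Ppargc1a, the coactivator PGC-1alpha of mitochondrial and fasting genes (0.959). Myo1d log2 intensity was 7.43, 8.10, 7.44, 7.59 and 7.67 in WT livers 1 to 5 and 7.50, 7.62, 8.06, 7.82 and 7.59 in NML-KO livers 1 to 5. Ppargc1a was 7.62, 9.32, 7.54, 7.93 and 7.75 in WT livers and 7.67, 8.01, 8.67, 8.03 and 7.76 in NML-KO livers. Both were highest in WT 2 and NML-KO 3, where Cib3 was highest within its genotype. The genotype means of Ppargc1a were 8.03 in both, so it did not share the genotype difference of Cib3.

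Zfp521 (0.959), Dusp3, a phosphatase gene (0.953), Pcna, the DNA replication clamp (0.947), Rora, a nuclear receptor gene of the clock (0.946), and Mef2a, a transcription factor gene (0.946), completed the 8. Zfp521 is also one of the neighbours of Cabyr on chromosome 18, with r = 0.620 to Cabyr. Without WT 2 and NML-KO 3, r was 0.920 for Myo1d, 0.783 for Ppargc1a and 0.691 for Mef2a. The lowest correlations were those of Krtap5-2 (-0.975), Col27a1, a collagen gene (-0.958), Enkd1 (-0.942) and Ccdc153 (-0.941). Krtap5-2 and Zfp521 lay below the array median in every liver. Col27a1 was 6.87 in WT 2 and between 7.75 and 8.0 in the other WT livers, the mirror of Cib3.

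Of the 24 named followers 0 had an unadjusted p below 0.05 between genotypes in limma, close to the 2.70% of all genes, and their log2 differences ran from -0.17 (Enkd1) to 0.15 (Zfp521). In all, 54 genes had an r of at least 0.9 in size with Cabyr, 23 of them positive, and 75 with Cib3, 50 positive. The median gene had 43 such genes, and 57.0% of genes had fewer than Cabyr and 66.6% fewer than Cib3, so both lay near the median gene. With the array set centred out the counts were 551 and 561 against 164 for the median gene. Their r to Dbp, which separates the array sets, was 0.324 (Cabyr) and 0.250 (Cib3). The 19 measured clock genes had a median r of 0.284 with Cabyr, and 0.739 without NML-KO 2. With Cib3 their median was 0.178, and -0.049 without WT 2. Once the array set was centred out, the clock medians were 0.017 (Cabyr) and -0.016 (Cib3).

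**Figure D3:**
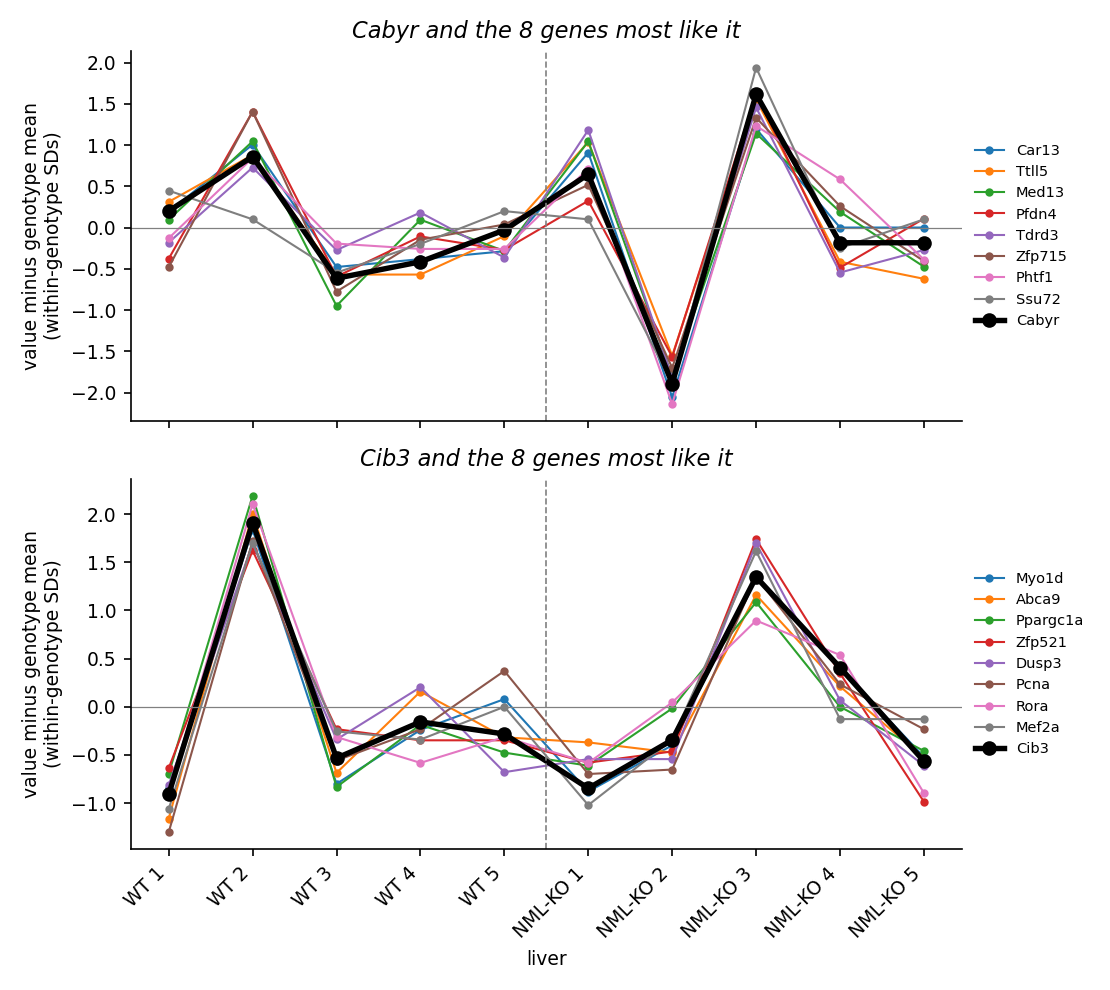
Value of each gene in each liver minus its genotype mean, in units of its own SD within genotype; the black line is Cabyr (top) or Cib3 (bottom), coloured lines are the 8 genes with the highest r to it, and the dashed line parts WT from NML-KO livers. The Cabyr pattern has its low point in NML-KO 2 and its high point in NML-KO 3, and the Cib3 pattern its high points in WT 2 and NML-KO 3. NML-KO 2 also had the highest array median intensity and NML-KO 3 the lowest.

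The lists show what else moved with the genes among livers of a genotype, each given by the median r of its members beside 0.012 (Cabyr) and -0.021 (Cib3) over all genes. Cib3 ran against male-biased liver genes: 16 of 17 had a negative r, with a median of -0.603. Examples, chosen after their values were seen, were Gstp1, a glutathione transferase gene (-0.847), Bcl6, a repressor of female-biased genes in male liver (-0.834), and Cyp2d9 (-0.802), while Cspg5 had 0.450. Of 15 female-biased genes 13 had a positive r, with a median of 0.384. WT 2 had the lowest mean of the male-biased list, 9.73 against 10.41 to 11.25 in the other livers, and the highest mean of the female-biased list, 6.52 against 5.93 to 6.46. Without WT 2 the male-biased median was -0.092 and the female-biased median 0.333. The 18 genes of growth hormone and insulin response had a median of 0.482, and 0.213 without WT 2. Bcl6 and Ppargc1a are among them, with Onecut1, a hepatocyte transcription factor gene (0.868), and Igf1, the growth factor that the liver secretes under growth hormone (0.852), both named after their values were seen.

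Markers of endothelial cells, Kupffer cells and adipocytes had the highest median r with Cib3 among the cell type lists, all positive. Lymphocyte (0.333), hepatocyte (0.246, but -0.080 without WT 2) and stellate cell and fibroblast (0.182) markers were positive too. Cholangiocyte (-0.008), erythroid (-0.001) and neutrophil (0.017) markers lay near 0, and pancreatic acinar (-0.180) and fetal liver and liver tumour (-0.290) markers below it. Of 11 sinusoidal endothelial markers 10 had a positive r, with a median of 0.659. Their list mean was 8.62 to 8.94 in WT livers and 8.58 to 9.0 in NML-KO livers, highest in WT 2 and NML-KO 3 within each group. Pecam1 (0.874) and Stab1 (0.755) are examples chosen after their values were seen. Leaving out NML-KO 3 gave a median of 0.483, leaving out WT 2 gave 0.536, and leaving out both gave 0.196. Kupffer cell and macrophage markers had 12 of 13 positive, with a median of 0.457 that became 0.821 with the array set centred out. Their list mean was 7.62 to 8.68 in WT livers and 7.53 to 8.93 in NML-KO livers.

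Adipocyte markers had 8 of 9 positive, with a median of 0.678, and the list mean in WT 2 was 7.88 against 6.73 to 7.01 in all other livers. Without WT 2 that median was 0.044, and without WT 2 and NML-KO 3 it was -0.628. Between genotypes the endothelial markers had a median log2 difference of -0.068 (10 of 11 below 0) and the Kupffer cell markers -0.12 (12 of 13 below 0). The adipocyte markers had -0.23 (8 of 9 below 0), with -0.54 for first-set livers, which include WT 2, and -0.071 for second-set livers. Over all genes 10650 of 19935 were below 0. The Kupffer cell median was -0.13 for first-set livers and 0.17 for second-set livers. None of these endothelial, Kupffer cell and adipocyte markers had an unadjusted p below 0.05 in limma, a mark met by 2.70% of all genes. The part of these cell types in the Cib3 difference was not tested.

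**Figure D4:**
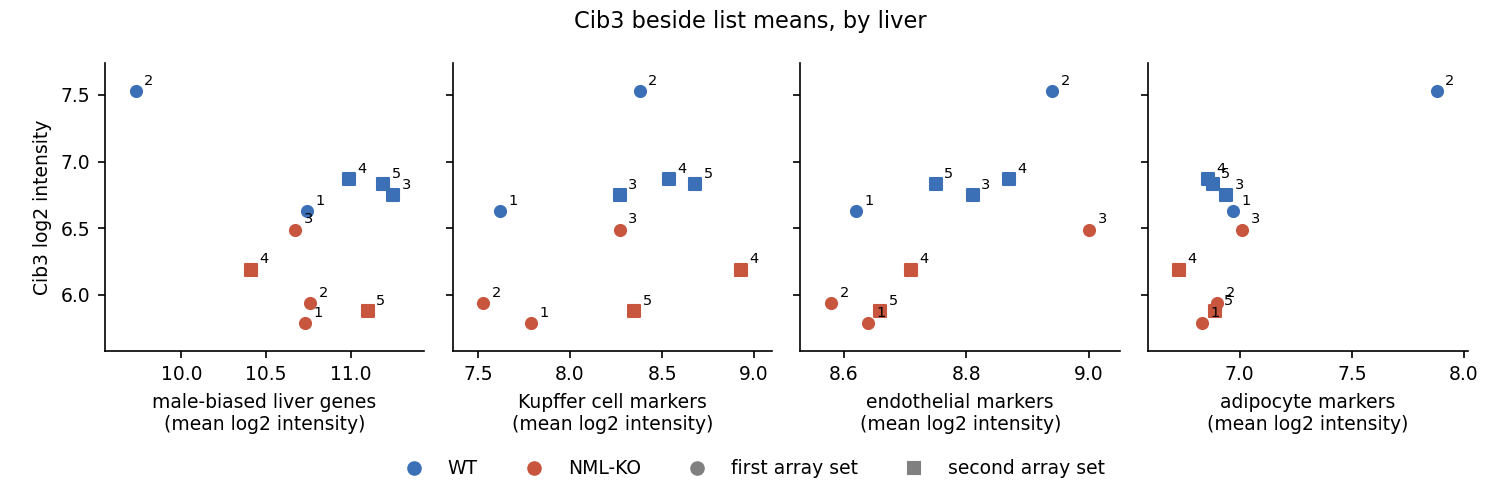
Cib3 log2 intensity against the mean log2 intensity of 4 lists in each liver, WT in blue and NML-KO in red, numbered by liver, with the array set as the marker. WT 2 lies apart at the left of the male-biased list (9.73) and at the right of the adipocyte list (7.88), and NML-KO 3 has the highest endothelial mean, 9.0.

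For Cabyr the list median farthest from 0 was that of the endothelial markers, 0.424 with 10 of 11 positive, and it was 0.010 without NML-KO 3. Kdr, an endothelial receptor gene, had 0.866 and was named after its value was seen. Calcium-dependent kinases, calcineurin and targets had 0.270 with 21 of 28 positive, and 0.046 without NML-KO 2. With the array set centred out it was 0.568. Its highest r was that of Camk2g, a CaM kinase II subunit gene (0.882, named after its value was seen). The CIB family and its partners had -0.367 with 12 of 16 negative, and 0.023 without NML-KO 2. Pancreatic acinar markers had -0.295 with 6 of 7 negative, but 0.333 without NML-KO 2. The sperm tail list had -0.100 and the germ cell list -0.038, and without NML-KO 2 these turned to 0.253 and 0.315. Markers of fetal liver and liver tumours had a median of -0.009, and cholangiocyte markers 0.030. Adipocyte markers had 0.323 with 9 of 9 positive (0.112 to 0.560 with 1 liver left out in turn). Hepatocyte markers had 0.314 with 9 of 11 positive (0.201 to 0.389). The growth hormone and insulin response list had 0.310 with 14 of 18 positive (0.228 to 0.327).

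**Figure D5:**
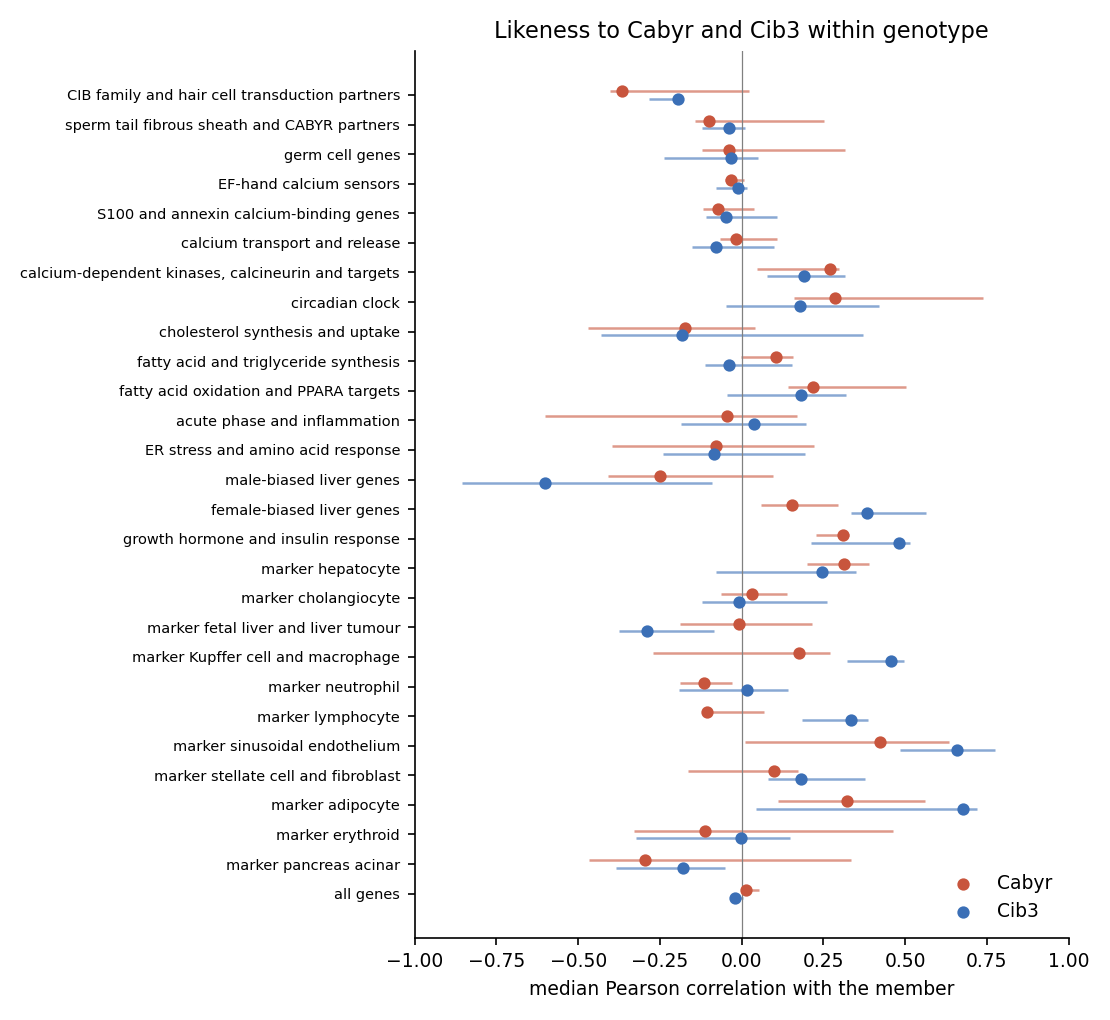
Median Pearson correlation of each list's members with Cabyr (red) and Cib3 (blue) over 10 livers after centring within genotype; bars span the medians with 1 liver left out in turn. The male-biased list lies farthest below 0 for Cib3 (-0.603, bar from -0.856 to -0.092), and the adipocyte (0.678) and endothelial (0.659) lists farthest above.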

How the data were processed

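The authors deposited 1 table of probe set intensity values on a linear scale, from 18.4 to 29834, for 10 arrays. RNA was fragmented and biotin-labelled for whole-transcript arrays, per the labels' protocols, and the submitters' processing notes name mm8. The steps of background correction, normalization and summarization (not given in the sources used here) could change the values.

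Values were taken to log2. Of the probe sets 21780 had 1 gene symbol, and the brightest of each gene was kept, without a filter. For 21689 probe sets the symbol was taken by gene ID from RefSeq's GRCm38.p6 table, changed or not, and that table otherwise gave gene order only. The genotypes were contrasted in limma 3.58.1 (R 4.3.3), and p-values were adjusted by Benjamini and Hochberg's method for 19935 genes. The fit and the follower ranking were tried on simulated data with independent noise for each gene and no array sets, unlike the real arrays. The fit recovered 18.8% of 1.2-fold, 60.2% of 1.5-fold and 93.2% of 2-fold changes at an adjusted p below 0.05. Simulated followers carried a signal stronger than their noise, so weaker ones were not tried. Correlations used values centred within genotype, with exact permutation within genotype for the 1 pair tested.

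Members and lists were chosen with earlier results of these data known. Named genes were Cabyr and Cib3, the 8 highest and 4 lowest correlations with each (leaving out predicted genes, microRNAs and chemoreceptors), the 5 neighbours on each side, the 2 smallest p of each calcium, CIB and sperm list, CIB family members, Rrp8 and Dbp; others are marked as chosen later. Some genes stand in more than 1 list. Alternatives are given in the closing section. Arrays limit precision by their number.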

Additional observations from a re-analysis of the deposited data

Results flagged for a closer look

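In each genotype, the highest or lowest liver was checked for a gap to the nearest of the others of more than 0.71 of the group's range, for 63 genes in 126 groups. Such gaps were found in 14 groups, and chance gives about 1 in 20. The followers were chosen for their likeness to Cib3 or Cabyr, so their gaps in WT 2 are not separate evidence.

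Cib3 was 7.53 in WT 2, against 6.63 to 6.87 in the other WT livers. Among genes that follow Cib3, WT 2 also stood apart for Ppargc1a (9.32 against 7.54 to 7.93), Rora (9.82 against 9.15 to 9.28), Zfp521 (5.58 against 5.19 to 5.26), Krtap5-2 (4.96 against 5.33 to 5.44) and Col27a1 (6.87 against 7.75 to 8.0). It did so as well for the Cabyr followers Pfdn4 (5.84 against 5.47 to 5.55) and Phtf1 (6.42 against 6.24 to 6.26), and for the Cabyr neighbours Impact (8.52 against 7.45 to 7.72) and Ttc39c (11.09 against 11.75 to 12.0).

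In other livers, Dusp3 was 8.29 in NML-KO 3 (others 7.95 to 8.05) and Ankrd29 was 5.73 in NML-KO 1 (others 5.45 to 5.52). Rmc1 was 7.80 in WT 5 (others 8.13 to 8.21) and Ss18 was 7.19 in WT 1 (others 6.88 to 6.95).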

How the results depend on the processing

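The differences of Cabyr and Cib3 kept their sign in all 20 alternatives run for each, from 1.26 to 1.83 and from -1.01 to -0.71, and moved by less than 1 SD. The count past the adjusted threshold was 0 in 21 of 22 alternatives. It ran from 0 to 1 with 1 array left out, and the exception was without NML-KO 4. The correlation of Cabyr with Cib3 ran from 0.282 to 0.668 with 1 array left out. With the replicate number as a block (replicate block) it was 0.987 (p = 0.0167, exact permutation, unadjusted for the settings tried), a fit that leaves 5 pairs. The labels tie no number to a litter or day. Same-numbered livers correlated over genes at 0.264 to 0.537, except number 3, whose livers lie in different array sets (-0.416), and 2 of 10 livers correlated best with their own number, so the numbers were not taken as pairs. That block changed no other call on either gene's difference, or on the count past the threshold. Counts of close followers moved more: with the array set centred out 551 for Cabyr and 561 for Cib3 (median gene 164), with the replicate block 1729 and 1789 (median gene 906), and with 1 array left out 60 to 365 and 78 to 229. These settings leave fewer independent points. Of the 54 and 75 genes, 13 were still close to Cabyr without NML-KO 2 and 20 to Cib3 without WT 2; 20 and 38 were so after quantile normalization, and 15 and 13 with Spearman's rho. Of the 12 named followers of Cabyr, 6 were still close after quantile normalization, 6 without NML-KO 2 and 3 with Spearman's rho. For the 12 of Cib3 the counts were 10 after quantile normalization, 11 without WT 2 and 3 with Spearman's rho. Of 29 list medians, 24 turned sign in at least 1 setting.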
